A study of Homo sapiens with 9 samples.

Results

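Expression in MDA-MB-231 cells after 24 h of JQ1 was set against expression after 12 h of JQ1, to see what still moved between the 2 times. The comparison takes 6 of the 9 arrays of the study, 3 at each time, chosen by their titles, and no control array enters the difference. MDA-MB-231 is an established human breast cancer line of the triple-negative type, and every array holds RNA of this 1 line. Cells plated in DMEM with fetal bovine serum received JQ1 at 500 nM for 12 h or for 24 h, and the 3 control samples received no agent and carry the time 0. The control levels are given beside the treated ones for orientation. The labels name no vehicle and no untreated culture at 12 h or 24 h, so time on JQ1 and time in culture cannot be told apart. Nor do they tell if replicates came from separate cultures, and p-values then reflect only how far these samples scatter, perhaps for technical reasons.

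JQ1 is a small molecule that sits in the acetyl-lysine pocket of the BET bromodomain proteins and displaces them from chromatin, where they help RNA polymerase into productive elongation. Genes of mitosis are transcribed late in the cell cycle, under the transcription factors B-MYB (gene MYBL2) and FOXM1 and the MuvB complex. These are known to act through cell cycle homology region (CHR) elements in the promoters. CCAAT boxes in the same promoters are also known to take part in the control of mitotic genes. The RNA level of mitosis genes in a dividing culture therefore follows the share of cells in G2 and mitosis as well as their transcription. In RNA from whole cultures, fewer cells of a type and less RNA per cell cannot be told apart.

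Values are log2 array intensities on Affymetrix Human Gene 2.0 ST arrays, so a difference of 1 is 2-fold, over 14884 genes with 1 row each. Of 12 genes listed to check the line's identity, 9 were measured, and the label could not be checked with them, since levels of different probes share no scale and no background is known. Over the 6 JQ1 arrays the mesenchymal filament VIM lay between 10.59 and 10.69, the receptor kinase AXL between 11.50 and 12.02 and the estrogen receptor ESR1 between 4.81 and 5.17. The times overlapped in 8 of the 9 and separated in the progesterone receptor PGR (4.09, 4.05 and 3.99 at 12 h, then 4.18, 4.16 and 4.32). Of the 8 leukocyte markers measured, 0 separated the 2 times, and of the 5 fibroblast and endothelial markers 0 did. Over all genes tested, the times separated upward in 5.76% and downward in 7.11%. With so few markers, these counts say little beside those shares. Control 3 stood apart from controls 1 and 2, with an SD of 0.41 for its gene-by-gene differences from each of them, against 0.15 between those 2. The same SD was 0.20 to 0.23 within the 12 h group, 0.18 to 0.23 within the 24 h group and 0.22 to 0.26 between the groups. The 2 times were thus only slightly farther apart than their replicates. JQ1 24 h replicate 2 was nearest to JQ1 12 h replicate 2 (SD 0.218), but by a small margin over 24 h replicates 3 (0.222) and 1 (0.227). The 24 h replicates 1 and 3 were nearest to each other (0.18). On the first principal component of the 6 arrays, which held 34.3% of the variance, the 12 h arrays scored −2.36, −14.16 and −9.85 and the 24 h arrays 12.21, −0.48 and 14.64, so that 24 h replicate 2 lay on the 12 h side of its group.

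With 3 arrays at each time, few genes were called between the 2 times, and those not called were not shown to be level. Only AOX1 passed an adjusted p of 0.05 in limma, 1 gene or 0.00672% of the 14884 tested, and it fell. Against the controls, the fit on all 9 arrays called 1181 genes at 12 h (7.93%) and 1714 at 24 h (11.5%). Without control 3 these counts were 2986 and 3111. At an unadjusted p under 0.05, 803 genes (5.4%) were lower and 640 (4.3%) higher at 24 h than at 12 h. In 1058 genes (7.11%) all 3 of the 24 h arrays lay below all 3 of the 12 h arrays, and in 858 (5.76%) they lay above. Such genes are called separate below. Differences of at least 0.5 numbered 132 downward and 65 upward, of which 38 of the downward ones belong to the list of mitosis genes described below. The median difference of all genes was 0.0006 and the SD 0.16. Differences of 2-fold or more were found in 4 genes with lower values at 24 h (AOX1, NAV3, KRTAP2-3 and CD96) and in 1 with higher values (DDIT4).

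**Figure D1:**
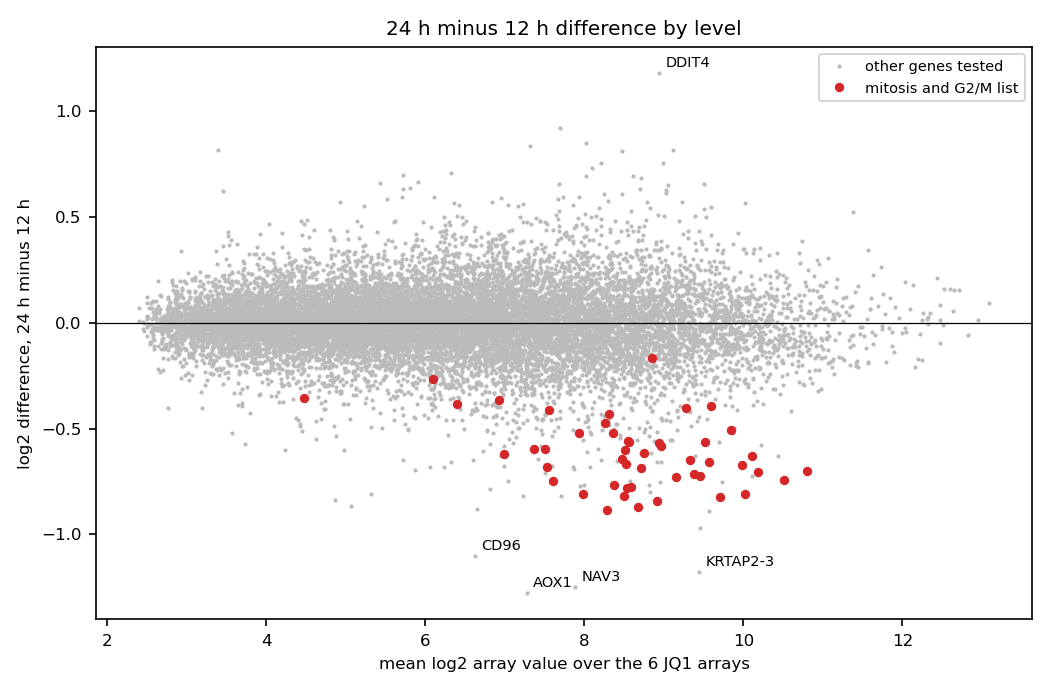
Difference between JQ1 24 h and JQ1 12 h (log2) against the mean log2 array value over the 6 JQ1 arrays, 1 point per gene for 14884 genes; the 48 measured genes of the mitosis and G2/M list are in red. The cloud is centred on 0, the 48 red points all lie below 0, and AOX1, NAV3, KRTAP2-3 and CD96 lie below −1 and DDIT4 above 1.

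AOX1 encodes aldehyde oxidase, a molybdenum-containing enzyme that oxidises aldehydes and nitrogen heterocycles. Its log2 values were 7.91, 7.94 and 7.90 in the 12 h arrays and 6.75, 6.56 and 6.61 in the 24 h arrays, with 9.17, 9.03 and 9.33 in the controls. The 3 groups form separate steps with no overlap, and the gap between the lowest 12 h value and the highest 24 h value was 1.15. From 12 h to 24 h AOX1 fell 2.42-fold (log2 difference −1.28, SE 0.08, limma adjusted p = 0.0043). The step from control to 12 h was of the same size, −1.26 (adjusted p = 0.00021), and that from control to 24 h was −2.54 (adjusted p = 5.2e-06). Without control 3 the 2 steps from control were −1.19 and −2.47. The difference between the times lay between −1.33 and −1.24 whichever array was left out. With 2 arrays in 1 group, however, the call was lost without any 1 of the 3 12 h arrays (adjusted p of 0.098, 0.11 and 0.096 without replicates 1, 2 and 3) or without 24 h replicate 3 (0.11), and kept without 24 h replicate 1 (0.026) or 2 (0.036).

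The 3 other genes with values more than 2-fold lower at 24 h had the same order of groups without passing the threshold. NAV3, a microtubule-associated neuron navigator protein, read 8.36, 8.79 and 8.39 at 12 h and 7.16, 7.59 and 7.04 at 24 h, with controls between 9.37 and 9.45 (difference −1.25, SE 0.17, adjusted p = 0.14). KRTAP2-3, a keratin-associated protein, read 10.04, 10.17 and 9.88 and then 8.80, 8.57 and 9.19, from 11.74 to 11.97 in the controls (−1.18, SE 0.16, adjusted p = 0.13). CD96, an immunoglobulin-family receptor known from T and NK cells, read 7.02, 7.19 and 7.31 and then 6.28, 5.76 and 6.18, from 8.02 to 8.33 in the controls (−1.10, SE 0.15, adjusted p = 0.13). In each of them the 12 h and 24 h arrays did not overlap, and both treated groups lay below all 3 controls. The array with the lowest value was not the same one: it was 24 h replicate 3 for NAV3 and replicate 2 for KRTAP2-3 and CD96. Of the leukocyte markers, CD4 lay between 5.07 and 5.38, the myeloid adaptor TYROBP between 5.42 and 5.76 and NKG7 between 5.69 and 6.01 on the 6 arrays. The 8 markers ranged from LYZ, between 3.84 and 3.99, to CD68, a lysosomal protein that is not limited to leukocytes, between 11.42 and 11.76.

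**Figure D2:**
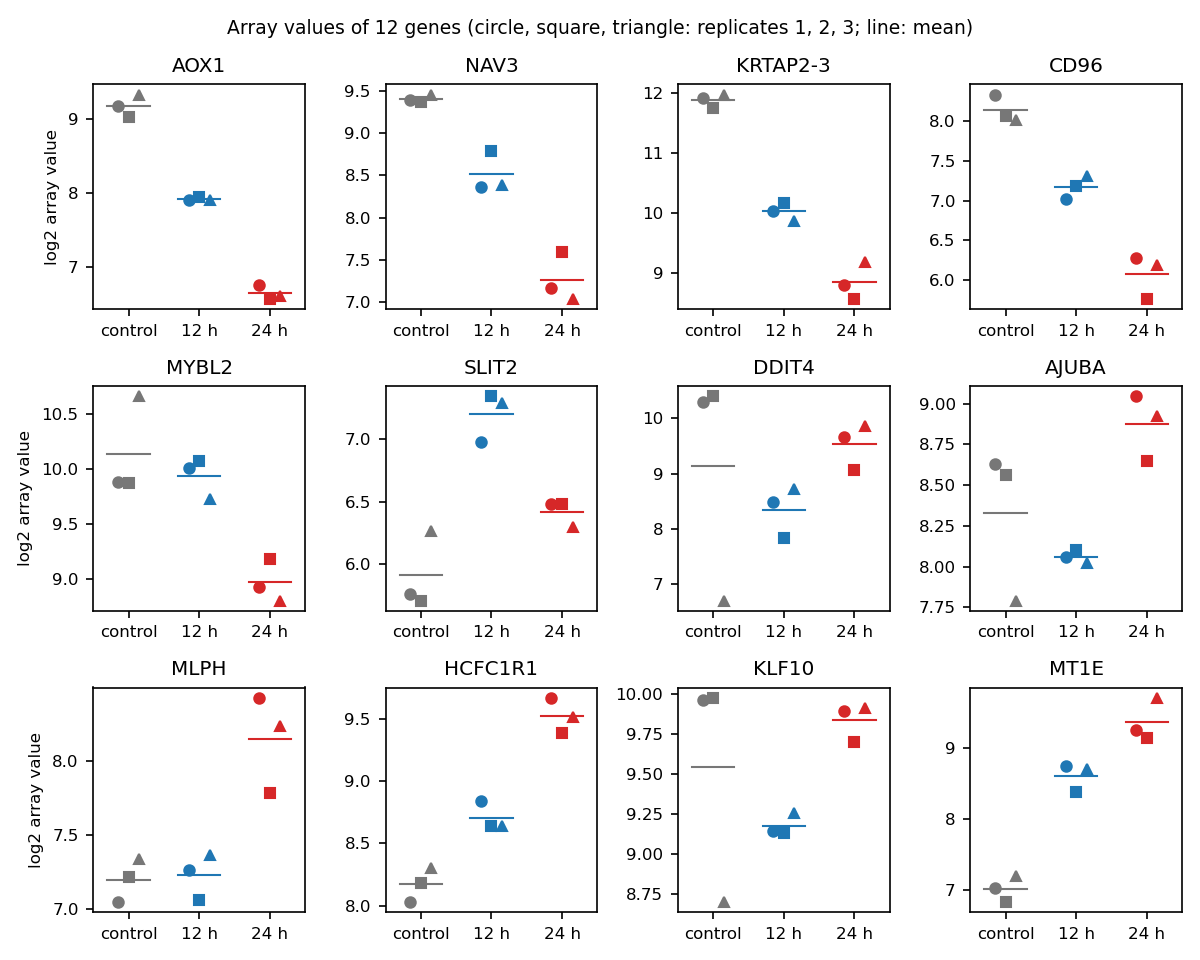
Log2 array values of 12 genes in the 3 control, 3 JQ1 12 h and 3 JQ1 24 h arrays (circle, square and triangle for replicates 1, 2 and 3; the line is the group mean); each panel has its own axis, which does not start at 0. In all 12 the 12 h and 24 h points do not overlap, with 24 h lower in the first 6 and higher in the last 6, and for AJUBA, DDIT4 and KLF10 control 3 lies far below controls 1 and 2.

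Beside AOX1, 29 genes without a call are named by the gap between the groups, 14 lower and 15 higher at 24 h, with adjusted p-values from 0.13 to 0.26. Several of the lower ones were above the controls at 12 h and nearer to them at 24 h. PNP, the purine nucleoside phosphorylase, read 9.38, 9.36 and 9.32 at 12 h and 8.78, 8.78 and 8.84 at 24 h, against 8.77 to 9.10 in the controls. SLIT2, a secreted axon guidance ligand, read 6.98, 7.34 and 7.29 and then 6.48, 6.48 and 6.30, both above the 5.71 to 6.26 of the controls. For the protocadherin PCDH9 and for SIPA1L2, a GTPase-activating protein, the 24 h values also lay between the 12 h values and controls 1 and 2. PCDH9 is dim, with a mean under 5, and its difference of −0.49 was −0.23 with the mean of its rows. The anti-apoptotic BCL2 relative BCL2A1 read 7.03, 7.0 and 7.24 at 12 h and 6.50, 6.12 and 6.01 at 24 h, both below all controls (9.30, 9.17 and 7.65). MBNL3, an RNA-binding regulator of splicing, lay at 6.55 to 6.76 in the controls, at 6.01 to 6.09 at 12 h and at 5.35 to 5.50 at 24 h. BMAL1, the activating partner of the circadian clock, read 7.19, 7.25 and 7.54 at 12 h and 6.74, 6.57 and 6.63 at 24 h. The last 3 were near control 3 (6.61) and below controls 1 and 2 (7.36 and 7.31).

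Among the genes with higher values at 24 h, DDIT4, an inhibitor of mTORC1 signalling that responds to stress, had the widest difference, 1.18 (SE 0.27, adjusted p = 0.26). It read 8.49, 7.84 and 8.72 at 12 h and 9.66, 9.07 and 9.86 at 24 h. The controls were at 10.30, 10.40 and 6.70, so the 3 controls spanned more than both treated groups and the direction of DDIT4 against control depends on which control is used. AJUBA and LIMD1, LIM-domain scaffold proteins that bind the LATS kinases of the Hippo pathway, were both higher at 24 h. AJUBA read 8.06, 8.10 and 8.02 at 12 h and 9.05, 8.65 and 8.93 at 24 h (difference 0.81, SE 0.11, adjusted p = 0.13). For LIMD1 the values were 7.82, 7.95 and 7.95, and then 8.44, 8.37 and 8.54 (0.54, SE 0.08, adjusted p = 0.15). Of the 15 genes of the YAP and TEAD target list, which holds AJUBA, 3 were separate upward (AJUBA, AMOTL2, CRIM1) and 1 downward (YAP1). For all genes tested the shares were 5.76% upward and 7.11% downward. AJUBA itself was named because its groups do not overlap.

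KLF10, a TGF-beta-inducible zinc finger repressor, read 9.15, 9.13 and 9.26 at 12 h and 9.90, 9.70 and 9.91 at 24 h, close to controls 1 and 2 (9.96 and 9.98) and above control 3 (8.70). MLPH, the melanophilin that links RAB27A to myosin on melanosomes, was level with the controls at 12 h (7.26, 7.06 and 7.37 against 7.05 to 7.34) and stood at 8.43, 7.79 and 8.24 at 24 h. HCFC1R1, a regulator of the nuclear export of the host cell factor HCFC1, lay at 8.03 to 8.31 in the controls, at 8.84, 8.64 and 8.64 at 12 h and at 9.67, 9.39 and 9.51 at 24 h. MT1E, a zinc-binding metallothionein whose close paralogs the probes may not separate, had the same order. It lay at 6.83 to 7.20, then at 8.75, 8.37 and 8.70 and then at 9.25, 9.14 and 9.70. HEG1, a transmembrane partner of the KRIT1 complex, read 9.28 to 9.34 at 12 h and 9.80 to 9.95 at 24 h, and AGRN, the heparan sulfate proteoglycan agrin, 7.86 to 8.01 and then 8.43 to 8.63. AMIGO2, a cell adhesion protein, was nearer to the controls at 24 h: it lay at 5.69, 6.22 and 5.97 at 12 h, at 6.71, 6.58 and 6.72 at 24 h and at 7.32 to 7.40 in the controls. The remaining higher genes (AHNAK2, PAQR5, SHB, DHRS12 and CYB5A) had differences between 0.48 and 0.85. In 14 of the 15 higher genes the lowest of the 24 h arrays was replicate 2.

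**Figure D3:**
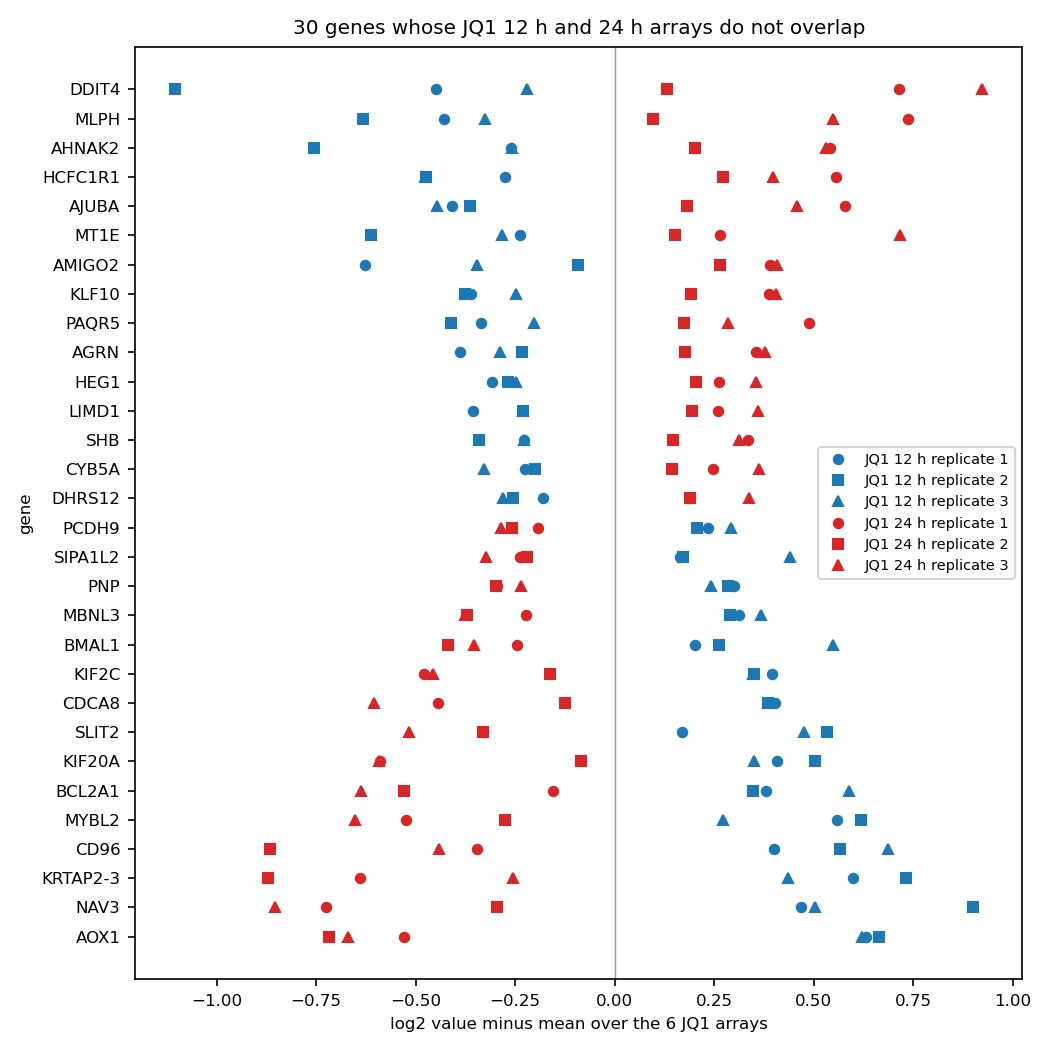
Log2 value of each JQ1 array minus the gene's mean over the 6 JQ1 arrays, for the 15 genes lower and the 15 higher at 24 h; blue for 12 h, red for 24 h, with a shape per replicate. The genes were chosen because red and blue do not overlap, so the separation is given by the choice; the red square of 24 h replicate 2 is the red point nearest to 0 in 14 of the 15 higher genes (all but DHRS12) and in 6 of the 15 lower ones (CDCA8, KIF2C, KIF20A, MYBL2, NAV3 and SIPA1L2), and is level with replicate 1 in SLIT2.

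Of the 29 gene lists with measured members, that of mitosis had the widest median difference between the times. Of its 60 genes of mitosis and the G2 to M transition, 48 were measured and all 48 were lower at 24 h than at 12 h in the group mean. None passed the adjusted threshold (0 of 48; adjusted p from 0.13 to 0.74), while 45 had an unadjusted p under 0.05 against 5.4% of all genes in that direction. In 43 of the 48 the 24 h arrays lay below all 12 h arrays, against 7.11% of all genes; PBK, CDK1, MELK, CDKN3 and PTTG1 overlapped. The median difference was −0.64, from −0.88 for PBK to −0.17 for CDC25B, beside 0.00 for all genes. Genes of 1 cell cycle phase vary together from culture to culture, so these counts are not 48 separate observations.

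The difference was not equal on the 3 arrays of 24 h. Relative to each gene's mean over the 6 JQ1 arrays, the median member lay at 0.25, 0.36 and 0.35 on the 12 h arrays and at −0.38, 0.02 and −0.59 on the 24 h arrays. Replicate 2 was the highest of the 24 h arrays in 47 of the 48 genes and replicate 3 the lowest in 42. Set against the mean of the 12 h arrays, the median member was 0.28 lower on replicate 2 and, on replicates 1 and 3 together, 0.81 lower. On replicates 1 and 3 all 48 genes were below all 12 h arrays, and on replicate 2 the count was 43. The controls stood at 0.20, 0.15 and 0.68 on this scale, so that controls 1 and 2 were slightly below the 12 h arrays and control 3 above all treated arrays. In 44 genes replicate 1 lay below both controls 1 and 2, as did replicate 3 in 44 and replicate 2 in 30. All 12 h arrays were above both of these controls in 23 genes and below both in 11. For the counts by single array and against controls 1 and 2, no share over all genes tested was taken. They describe the positions of these genes only.

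**Figure D4:**
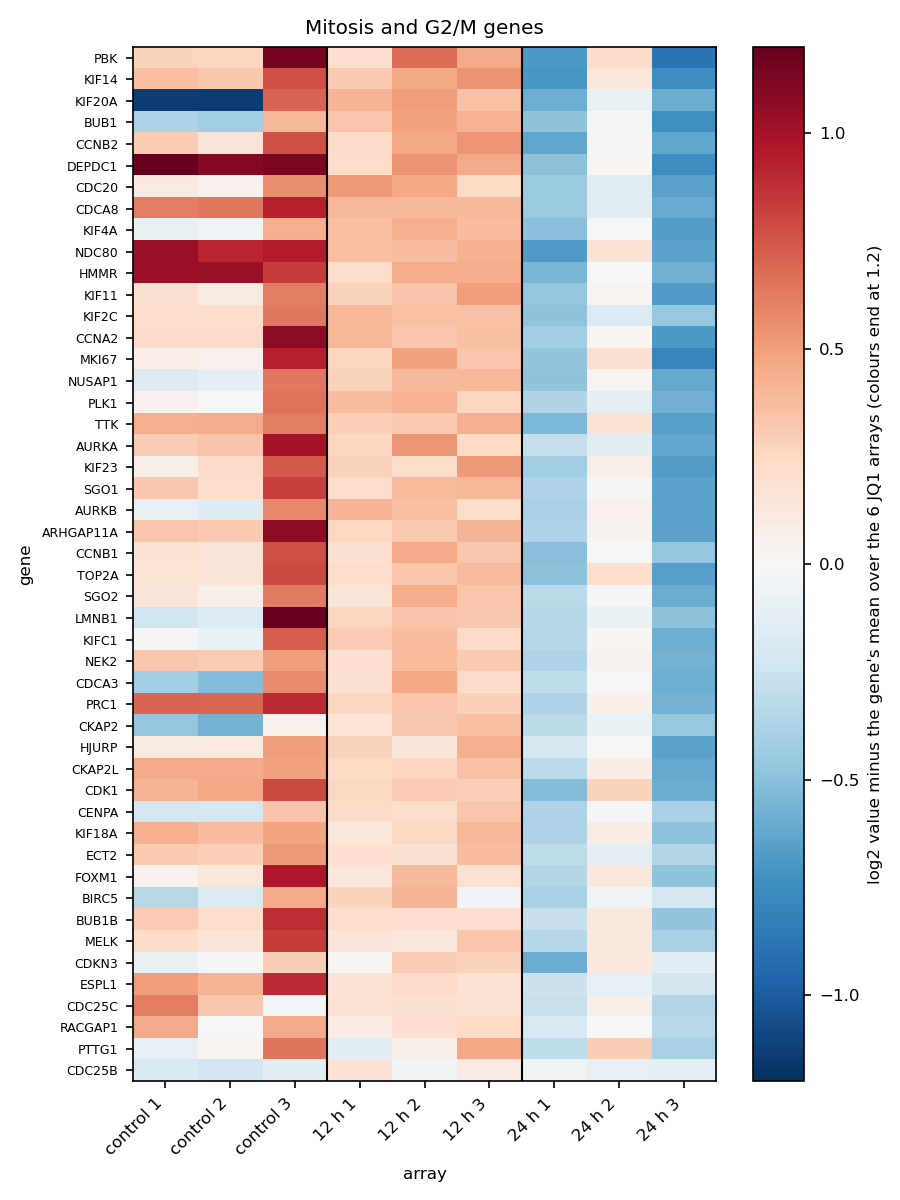
Log2 value minus the gene's mean over the 6 JQ1 arrays for the 48 measured genes of the mitosis and G2/M list (rows, ordered by the difference between the times) on each of the 9 arrays (columns); red is above and blue below that mean, and colours end at 1.2. The 12 h columns are red in nearly every row, 24 h columns 1 and 3 are blue, and the 24 h column 2 is near white, with a median of 0.02.

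The cyclins and the kinase they switch on stood as follows. CCNB1, the cyclin of mitotic entry, read 8.67, 8.93 and 8.80 at 12 h and 7.98, 8.47 and 8.01 at 24 h (difference −0.65, SE 0.14, adjusted p = 0.26). The related cyclin CCNB2 read 8.74, 8.97 and 9.03 and then 7.88, 8.52 and 7.88 (−0.82), and CCNA2, the cyclin of S phase and G2, 9.86, 9.79 and 9.81 and then 9.04, 9.48 and 8.77 (−0.73). In all 3 cyclins the groups were separate and 24 h replicate 2 came nearest to the 12 h level. The kinase CDK1 itself read 8.80, 8.85 and 8.83 at 12 h and 8.03, 8.83 and 7.96 at 24 h, so that only replicate 2 stood at the 12 h level. CDC25B, a phosphatase that activates CDK1 early, differed least, with 9.03, 8.82 and 8.95 against 8.81, 8.75 and 8.74.

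All 9 mitotic kinases measured were lower, with a median of −0.68, and in 7 the groups were separate. PLK1, which drives centrosome maturation and spindle assembly, read 11.17, 11.21 and 11.05 at 12 h and 10.43, 10.69 and 10.21 at 24 h (−0.70, SE 0.12, adjusted p = 0.22). AURKA, the kinase of the spindle poles, read 7.79, 8.06 and 7.77 and then 7.26, 7.41 and 6.91 (−0.68), and AURKB, that of the chromosomal passenger complex, 9.98, 9.93 and 9.78 and then 9.18, 9.62 and 8.93 (−0.66). BUB1, a kinase of the spindle checkpoint, read 10.04, 10.18 and 10.12 and then 9.22, 9.68 and 8.97 (−0.82). For these 4 kinases too the order of the 24 h arrays was the same, replicate 2 highest and replicate 3 lowest. At the kinetochore, where chromosomes meet the spindle, the 7 genes measured were all separate, with a median of −0.62. CDCA8, the borealin subunit of the passenger complex, read 8.94, 8.92 and 8.92 and then 8.09, 8.41 and 7.93 (−0.78, SE 0.12, adjusted p = 0.18). NDC80, which binds microtubules, was at 8.73, 8.74 and 8.79 and then at 7.69, 8.54 and 7.73 (−0.77), with replicate 2 the closest to the 12 h level.

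The 8 kinesin motors of the list, which slide or depolymerise spindle microtubules, had the lowest median of the roles with 5 or more genes, −0.74, and were separate in 8 of 8. KIF20A, needed for cytokinesis, read 9.33, 9.42 and 9.27 at 12 h and 8.33, 8.83 and 8.32 at 24 h (−0.84, SE 0.14, adjusted p = 0.21), and it stood at 7.78, 7.78 and 9.61 in the controls. The depolymerase KIF2C read 9.55, 9.51 and 9.50 and then 8.68, 8.99 and 8.70 (−0.73, SE 0.10, adjusted p = 0.13). KIF11, the motor that pushes spindle poles apart, read 10.79, 10.86 and 11.01 and then 10.05, 10.55 and 9.84 (−0.74). KIF20A is the member whose controls disagree most: controls 1 and 2 were below every treated array and control 3 above them. The 34 other kinesin genes measured, most of which carry cargo along microtubules, had a median of −0.0046. Of the 34, 6 were separate downward (against 7.11% of all genes tested) and 1 upward (against 5.76%). The lower ones were KIF15, KIF18B and KIF22, which also work on the spindle or chromosomes, KIF4B (−0.55), a near copy of KIF4A whose probes may share signal with it, and KIF5B and KIF6. The higher one was KIFC3.

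Spindle proteins, cytokinesis factors and the rest were lower in the same way. HMMR read 7.83, 8.06 and 8.06 at 12 h and 7.07, 7.61 and 7.03 at 24 h (−0.75), and PRC1, which bundles midzone microtubules, 9.23, 9.30 and 9.26 and then 8.60, 9.03 and 8.40 (−0.58). Both lay below all 3 controls already at 12 h. TOP2A, the topoisomerase that untangles sister chromatids, read 10.33, 10.44 and 10.49 and then 9.62, 10.31 and 9.44 (−0.63), with a gap of 0.01 between replicate 2 and the lowest 12 h array. CDC20, the activator of the anaphase-promoting complex, read 10.54, 10.48 and 10.26 and then 9.57, 9.90 and 9.37 (−0.81), but securin, PTTG1, read 5.97, 6.16 and 6.56 and then 5.79, 6.39 and 5.71, and its groups overlapped. The proliferation marker MKI67 was at 9.63, 9.86 and 9.71 and then at 8.91, 9.56 and 8.59 (−0.71).

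The transcription factors that act on these genes differed in degree. MYBL2, which encodes B-MYB, is not in the list and was named by the gap between its groups. It read 10.01, 10.07 and 9.73 at 12 h and 8.93, 9.18 and 8.80 at 24 h, a difference of −0.97 (SE 0.13, adjusted p = 0.13), wider than that of any of the 48 list members. Here all 3 of the 24 h arrays were at least 0.5 below the 12 h group, replicate 2 included, and below the controls (9.89, 9.87 and 10.66). FOXM1 read 8.40, 8.65 and 8.44 at 12 h and 7.91, 8.39 and 7.78 at 24 h, a difference of −0.47 with replicate 2 level with the lowest 12 h array. E2F1, a factor of the G1/S step, differed little (7.55, 7.70 and 7.34 against 7.45, 7.58 and 7.26).

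Promoter sequences are shown for the 4 list members with the widest gap between their groups, because the CHR and CCAAT letters through which mitotic genes are known to be controlled can be seen in them. They are RefSeq promoters of build GRCh38.p14, each on the + strand from 250 bases before the annotated start to 30 after it. The capitals mark TTTGAA and TTTAAA (the CHR letters) and CCAAT, on either strand, so that a CCAAT box on the other strand reads ATTGG. CDCA8 lies at chr1:37692266-37692545, KIF2C at chr1:44739587-44739866, KIF20A at chr5:138178862-138179141 and PLK1 at chr16:23678639-23678918.
CDCA8: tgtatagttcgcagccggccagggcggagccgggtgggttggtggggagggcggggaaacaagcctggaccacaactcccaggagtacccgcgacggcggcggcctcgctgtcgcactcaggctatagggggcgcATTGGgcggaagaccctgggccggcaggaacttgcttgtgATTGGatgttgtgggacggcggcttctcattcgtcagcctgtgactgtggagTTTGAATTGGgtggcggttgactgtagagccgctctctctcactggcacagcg
KIF2C: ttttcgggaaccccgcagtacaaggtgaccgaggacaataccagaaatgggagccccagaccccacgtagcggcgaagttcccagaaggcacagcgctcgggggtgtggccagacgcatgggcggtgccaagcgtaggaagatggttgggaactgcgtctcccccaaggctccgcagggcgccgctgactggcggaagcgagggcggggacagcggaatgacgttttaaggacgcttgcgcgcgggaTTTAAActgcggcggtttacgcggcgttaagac
KIF20A: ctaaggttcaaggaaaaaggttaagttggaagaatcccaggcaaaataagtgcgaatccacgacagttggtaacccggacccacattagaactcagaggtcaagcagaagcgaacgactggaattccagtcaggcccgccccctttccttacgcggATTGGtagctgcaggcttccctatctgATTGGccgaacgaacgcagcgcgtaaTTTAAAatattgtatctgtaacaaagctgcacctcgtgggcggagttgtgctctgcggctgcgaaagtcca
PLK1: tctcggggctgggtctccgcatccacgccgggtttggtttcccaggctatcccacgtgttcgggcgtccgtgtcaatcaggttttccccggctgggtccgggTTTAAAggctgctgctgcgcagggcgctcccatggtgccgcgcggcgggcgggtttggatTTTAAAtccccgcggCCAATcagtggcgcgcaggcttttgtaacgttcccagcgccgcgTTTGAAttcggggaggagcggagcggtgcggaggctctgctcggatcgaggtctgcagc

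In CDCA8 the CHR letters TTTGAA begin 23 bases before the start and share 1 base with a CCAAT box on the other strand, and 2 more such boxes begin 115 and 75 bases before it. KIF20A has TTTAAA 41 bases before the start, downstream of CCAAT boxes at 94 and 67. PLK1 has TTTGAA at 29 bases and TTTAAA at 88 and 148 bases before the start, with a CCAAT box at 73. KIF2C has TTTAAA across the start itself, from 3 bases before it, and no CCAAT in the window searched. Over the 300 bases of the table, which reach 50 bases past the start, 32 of the 42 list members with a promoter in the table (76.2%) held TTTGAA or TTTAAA on either strand, against 18.7% of the 10749 promoters of genes tested and 24.3% of all 27305 promoters. CCAAT was in 33 of the 42 (78.6%), against 36% of the genes tested and 35.7% of all. Both together were in 28 (66.7%), against 7.56% and 9.49%. In the 24 promoters of the DNA replication list, CHR letters were in 3 (12.5%) and CCAAT in 16 (66.7%). The letters describe the promoters of a list of mitosis genes, whether or not the genes differ between the 2 times, and say nothing of what was bound there. The search was chosen after the values had been seen.

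DNA replication genes shared the direction with smaller differences. Of 45 genes listed, 29 were measured, and 28 of them were lower at 24 h in the mean. In 18 the groups were separate, all downward, against 7.11% of all genes tested. The median difference was −0.36, and 0 passed the adjusted threshold. In limma 19 were lower at an unadjusted p under 0.05, against 5.4% of all genes tested. RRM2, the small subunit of ribonucleotide reductase, read 10.43, 10.62 and 10.46 at 12 h and 9.82, 10.12 and 9.84 at 24 h (−0.58, SE 0.10, adjusted p = 0.22). CLSPN, the checkpoint adaptor claspin, read 9.13, 9.53 and 9.23 and then 8.64, 9.04 and 8.24 (−0.66), and CCNE2, a cyclin of the G1/S step, 7.99, 8.70 and 8.32 and then 7.67, 7.88 and 7.62 (−0.61). The helicase subunits differed less, with MCM4 at −0.39, MCM7 at −0.32 and MCM2 at −0.17, and the clamp PCNA overlapped (9.86, 10.25 and 10.11 against 9.61, 10.08 and 9.73). E2F2 was the 1 member above 0. Control 3 held these genes high, with the median member 1.02 above the mean of the JQ1 arrays against −0.13 on both other controls, and so a comparison of either time with control depends on it.

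Of 22 genes of homologous recombination and the Fanconi pathway, which repair broken and cross-linked DNA, 11 were measured. All 11 were lower in the mean and 4 were separate, all downward, against 7.11% of all genes tested. Among the separate ones were the DNA translocase RAD54B (−0.53), the checkpoint kinase CHEK1 (−0.51) and the exonuclease EXO1 (−0.50). CHEK1 read 8.31, 8.43 and 8.66 at 12 h and 7.90, 8.13 and 7.86 at 24 h. The median of the 11 was −0.51, and 24 h replicate 2 lay at 0.07 relative to the mean of the JQ1 arrays, against −0.30 and −0.46 on replicates 1 and 3. The 3 cell cycle lists hold 88 measured genes in all, of which 50 were at least 0.5 lower at 24 h, out of 132 such genes among all those tested.

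The count of calls depends on single arrays. With 24 h replicate 2 left out, limma called 25 genes, 20 lower and 5 higher, and 13 of the lower ones belong to the mitosis list: KIF14, NDC80, CCNB2, BUB1, KIF20A, KIF4A, TTK, HMMR, CDCA8, NUSAP1, TOP2A, CDK1 and KIF2C. The others that were lower were AOX1, NAV3, SHCBP1, SKA3, CDCA2, HMGB2 and GTSE1, and the 5 higher were KLF10, TRNP1, AJUBA, ABHD4 and MLPH. Without replicate 2 the difference was −1.16 for KIF14 (adjusted p = 0.036), −1.05 for NDC80 and −0.84 for CDK1. TRNP1, a nuclear protein known from neural progenitors, shows the same array pattern upward, with 7.64, 7.64 and 7.63 at 12 h and 8.52, 7.73 and 8.42 at 24 h. Without any 1 of the 12 h arrays, or without 24 h replicate 3, the count was 0 (between 962 and 1655 genes had an unadjusted p under 0.05), and without 24 h replicate 1 it was 1, AOX1.

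**Figure D5:**
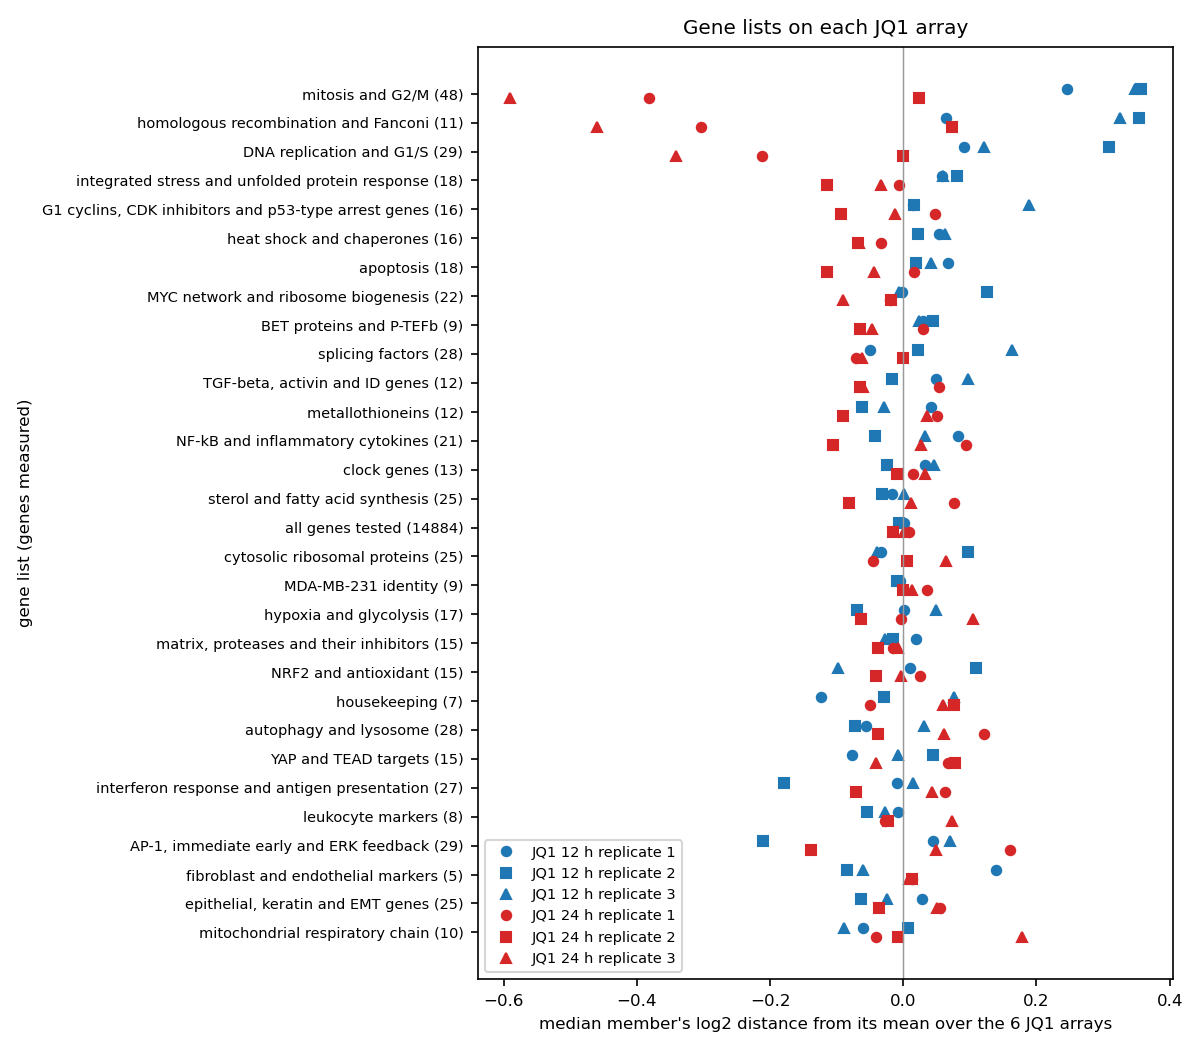
Median member of each gene list on each JQ1 array, as log2 distance from the gene's mean over the 6 JQ1 arrays, for 29 lists and all genes tested (number of genes measured in brackets); blue for 12 h, red for 24 h, with a shape per replicate. The 3 cell cycle lists at the top have 12 h to the right and 24 h replicates 1 and 3 to the left, with replicate 2 near 0, and the other lists lie within a narrower band.

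The 26 other lists had median differences between −0.13 and 0.08, and 1 of their members, AOX1 in the NRF2 and antioxidant list, was called. Among the lists nearest to JQ1's own target, the 9 genes of BET proteins and P-TEFb had a median of −0.06. BRD2 read 9.45, 9.49 and 9.46 at 12 h and 9.37, 9.41 and 9.37 at 24 h, and HEXIM1, the inhibitor of P-TEFb, 9.81, 9.61 and 9.78 and then 9.85, 9.64 and 9.85. The 22 genes of the MYC network had a median of −0.09. Of these 22, 3 were separate downward, among them LYAR (−0.33) and the nucleolar methyltransferase FBL (−0.21), and 1 upward. The shares for all genes tested were 7.11% and 5.76%. MYC itself read 9.03, 9.21 and 9.0 at 12 h and 9.36, 9.14 and 9.35 at 24 h, a difference of 0.20 (SE 0.09) with overlapping groups.

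In the apoptosis list 5 of 18 genes were separate downward and 1 upward. The downward ones were BCL2A1, the caspase inhibitor XIAP (−0.50), the apoptosome scaffold APAF1 (−0.37), the BH3-only protein BCL2L11 (−0.21) and the survival protein MCL1 (−0.21), and the upward one was BCL2L1 (0.20), so both pro- and anti-apoptotic genes were on the lower side. Of 28 autophagy and lysosome genes 5 were separate upward, among them the cathepsins CTSD (0.52) and CTSB (0.27) and the ATG8 relatives GABARAP (0.33) and GABARAPL2 (0.31), and 1, ATG3, downward. In the heat shock and chaperone list 5 of 16 genes were separate downward and 1 upward. The chaperones HSPA1A and HSPA1B, whose near-identical sequences may share probe signal, read 11.32 on all 12 h arrays and 11.14 to 11.19 at 24 h for the first, and 11.62 to 11.69 and then 11.46 to 11.49 for the second. Of 28 splicing factors 8 were separate downward, by 0.10 to 0.21. In the clock list BMAL1 was lower, while CLOCK (0.23) and the repressor PER2 (0.32) were higher, with PER2 at 5.83, 5.95 and 5.54 and then 6.18, 6.0 and 6.11. The lists of G1 cyclins and CDK inhibitors (median −0.13 over 16 genes), of the integrated stress and unfolded protein response (−0.13 over 18) and of the mitochondrial respiratory chain (0.08 over 10) were at the ends of the range. All these counts of separate genes stand beside 7.11% downward and 5.76% upward for all genes tested.

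Of 40 genes that stand out in the comparisons with control, chosen with earlier results of these data known, 21 differed by less than 0.25 between the times and 21 had overlapping groups. The other 19 were separate, 13 lower at 24 h (32.5%, against 7.11% of all genes tested) and 6 higher (15%, against 5.76%), and 1 of them, AOX1, was called. At 24 h the mean was farther from the control mean in 14 of these 19 and nearer to it in 5. The 40 were chosen from these same arrays, so these shares and directions are partly given by the choice. EFR3B, which anchors a phosphatidylinositol kinase complex at the plasma membrane, read 8.82, 9.02 and 8.76 at 12 h and 8.86, 8.65 and 8.76 at 24 h, far above the 5.25 to 5.94 of the controls. FST, the activin antagonist follistatin, read 6.25, 6.33 and 6.45 and then 6.44, 6.47 and 6.05, far below the 8.99 to 9.33 of the controls. In both genes the times overlapped, with differences of −0.11 (SE 0.10) for EFR3B and −0.02 (SE 0.12) for FST. This does not show that they were level. The cytokine LIF read 6.78, 6.24 and 7.05 and then 7.24, 6.84 and 7.18, and its groups overlapped. ZNF532, a zinc finger protein, was slightly nearer to the controls at 24 h (6.95, 6.88 and 6.87) than at 12 h (6.56, 6.68 and 6.50), and the matrix glycoprotein TNC slightly farther from them, with 6.69, 6.26 and 6.69 and then 6.07, 5.83 and 6.15. Beside AOX1, KRTAP2-3, BCL2A1 and TNC, the separate genes farther from control at 24 h were MT1E, CCND1, EPB41L3, HMMR, NDC80, PRC1, PTGS2, RDUR, TRNP1 and ZDHHC12-DT. The divergent transcript ZDHHC12-DT read 7.63, 7.70 and 7.68 at 12 h and 8.37, 8.04 and 8.69 at 24 h (0.69, adjusted p = 0.26), above the 5.92 to 6.61 of the controls. The noncoding RNA gene RDUR read 5.17, 5.57 and 5.76 at 12 h and 4.55, 4.49 and 4.87 at 24 h (−0.87, SE 0.16, limma adjusted p = 0.23).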

How the data were processed

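The deposited table gives 1 log2 value per row and array for 53617 rows and 9 arrays. Per the submitters' processing notes the authors used Transcriptome Analysis Console; its version, the normalization and the array's genome build are not given in the sources used here, and the log2 scale was read from the deposited values, which run from 2.01 to 13.88. Of the rows, 16098 have 1 gene symbol in the platform table, 0 have several and 37519 are unnamed here. All 16098 matched RefSeq genes (GRCh38.p14), and the row with the highest mean stood for each of 14884 genes, of which 779 had more than 1 row. The 6 JQ1 arrays were fitted with limma 3.58.1 in R 4.3.3 (4 residual degrees of freedom, eBayes without trend), with Benjamini-Hochberg adjustment over all genes and calls at an adjusted p under 0.05. The values against control come from a fit on all 9 arrays. The script was tested on simulated data. The number of arrays limits the precision.

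Named genes were those called whose groups do not overlap, up to 15 per direction, with the places left filled by the widest gap between the groups, without pseudogenes, olfactory receptors, antisense or small RNAs and uncharacterised loci, together with every called list member and the 40 genes that stood out against control. Members and lists were chosen with earlier results of these data known. The replication-dependent histone and proteasome lists had 0 measured genes. Same-numbered replicates were checked for pairing by the correlation of their deviations from the group means (0.03, 0.22 and −0.01 for numbers 1, 2 and 3), and the numbers were not taken as pairs. The rule for promoter motifs named none for the list with the most called members, so the CHR and CCAAT search was added after the data had been seen. Promoters are the first in the table for each symbol. Alternatives were all 9 arrays, a replicate block, leaving out each array, the mean of a gene's rows, a filter on dim genes, quantile normalization, median centring, an intensity trend, array weights and all rows, and, chosen after seeing the data, 8 arrays without control 3.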

Additional observations from a re-analysis of the deposited data

How the results depend on the processing

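AOX1 was the 1 gene called with all 9 arrays, the mean of a gene's rows, quantile normalization, median centring, an intensity trend and array weights. The count was 7 among genes with a mean of at least 5, where AOX1 was joined by CD96, HCFC1R1, KRTAP2-3, MBNL3, MYBL2 and NAV3, 22 with 8 arrays without control 3 (7 higher, 15 lower) and 0 over all rows of the table, where the adjusted p of AOX1 in limma was 0.061 at the same difference of −1.28 (over its alternatives the adjusted p ran from 0.00051 to 0.11). At an unadjusted p under 0.05 that fit had 3448 rows. With the replicate number as a replicate block, 3 genes were called (AOX1, DDIT4 and NAV3). The labels do not say if equal numbers pair the samples. Leaving out 1 array gave 0 to 25 calls, and the difference of AOX1 stayed between −1.33 and −1.24. The median of the mitosis list stayed between −0.81 and −0.49 without any 1 array and between −0.65 and −0.62 under the other alternatives run on it. Against control, the fit without control 3 called 2986 genes at 12 h and 3111 at 24 h. The cause of these shifts was not tested. Some genes without a call took the other sign. CD22 lay between −0.17 and 0.11 with 1 array left out, CXCL8 between −0.53 and 0.22, FST between −0.10 and 0.11, HEXIM1 between −0.018 and 0.11, MPZL3 between −0.20 and 0.16 and MYLIP between −0.32 and 0.0105. With array weights CXCL8 was at 0.15 and MPZL3 at −0.051. Where a group is left with 2 arrays, the fit pools its spread with that of the other group. No signal over background is known, since no scanner files were used here.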
